A study of Mus musculus with 11 samples.

Results

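The double knockdown of Khsrp and Fubp1 was compared with the knockdown of Khsrp alone, so the groups differ in the use of Fubp1 siRNA. The sample descriptions name the targets but give no order or dose. Adding Fubp1 siRNA therefore means, throughout, this difference between groups. The comparison took the 2 libraries whose labels name both targets and the 2 libraries whose labels name Khsrp, 4 of the 11 libraries of the series. All libraries were made from polyadenylated RNA of the mouse neuroblastoma line Neuro-2A (N2A). Cells were harvested 48 h after they had been transfected with small interfering RNA (siRNA) pools. The other groups were Fubp1 siRNA alone (2 libraries), Rbm38 siRNA (2 libraries) and non-targeting siRNA (siNT, 3 libraries). The transfections were transient and leave part of each target mRNA in place, and the labels give no clone or genotype beyond the line itself. Nothing in the labels says that replicates A and B came from separate cultures, so p-values measure the spread between these libraries, which may be technical.

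Fubp1 and Khsrp (also named Fubp2) belong, with Fubp3, to the far upstream element binding protein family, whose members hold single-stranded nucleic acids through a row of KH domains. FUBP1 was first known for binding upstream of the MYC gene, and KHSRP for binding AU-rich elements of short-lived mRNAs and precursors of microRNAs. Both are also known as splicing factors that bind uridine-rich stretches of introns. A cassette exon is an exon that can be included or skipped, and a microexon, here one of at most 27 nt, is a very short exon of the kind that neurons include. The unit is PSI, percent spliced in: the portion of a gene's transcripts that hold the exon, keep the intron or use the alternative splice site.

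The targeted transcript was measured first. In the authors' table, which holds 1 RPKM value (reads scaled by transcript length and library size) per group and no error, Fubp1 was at 189.9 RPKM in the Khsrp knockdown and 19.8 RPKM in the double knockdown. Khsrp was low in both, at 8.06 RPKM and 6.77 RPKM by the authors' values, against 47.0 RPKM in siNT. The paralog Fubp3 stood at 72.6 RPKM and 54.2 RPKM. An intron of Fubp1 (1953 nt, chr3:152226218-152228170 in GRCm38, intron 17) was retained at 6.41% and 3.13% in the Khsrp libraries and at 35.2% and 27.5% in the double knockdown (limma adjusted p = 2.35e-04). It was also at 51.0% and 42.1% with Fubp1 siRNA alone. A 1047-nt intron of Khsrp was retained at 45.4% and 43.0% in the Khsrp libraries and at 18% and 20.3% in the double knockdown, a difference that missed the threshold (limma adjusted p = 0.133). All 14 neuroblastoma and sympathoadrenal markers had a mean of at least 1 RPKM. Their summed level was 1950.5 RPKM with Khsrp siRNA and 1539.6 RPKM with both. Markers of fibroblasts, glia, macrophages and epithelium or endothelium summed to between 1.3 and 7.0 RPKM per list. Tested events had a median of 183 and 113 reads in the Khsrp libraries and of 133 and 99 in those of the double knockdown.

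Adding Fubp1 siRNA moved exons mostly towards skipping. Of 60139 tested events, 2925 (4.86%) were called, that is, their adjusted p in limma (Benjamini-Hochberg) was under 0.05 and their mean PSI differed by 10 points or more. Of these, 634 (1.05%) were higher and 2291 (3.81%) lower in the double knockdown, and the called events lay in 1638 of 9317 tested genes. Exons made up most of them, with 2045 of 21319 tested exons lower (9.59%) and 451 higher (2.12%). Microexons were lower in 66 of 478 cases (13.8%) and higher in 11 (2.3%). Among 26596 retained introns, 185 fell (0.696%) and 128 rose (0.481%). Alternative 3′ splice sites gave 37 higher (0.526%) and 29 lower (0.412%) of 7032, and alternative 5′ splice sites 18 higher (0.347%) and 32 lower (0.616%) of 5192. The 2 libraries of each group did not overlap in 2918 of the called events (99.8%), and in 45.9% of all events tested.

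These counts rested on few libraries. Without replicate A of the Khsrp knockdown, 1103 events were called lower and 236 higher. The higher count was 346 without Khsrp replicate B, 347 without double knockdown replicate A and 392 without its replicate B. In each of these fits, between 81.6% and 82.4% of the calls were lower in the double knockdown, against 78.3% with all libraries.

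The shift towards skipping was also visible in whole libraries. The median PSI of the tested exons was 91.7% and 91.8% with both siRNAs and 95.8% in both Khsrp libraries. The other 7 libraries of the series had medians from 94.7% to 96.2%. Exons under 90% PSI made up 46.5% and 46.2% of tested exons with both siRNAs, and 36.6% and 37.0% in the Khsrp knockdown. For microexons the median was 25.8% and 23.6% with both siRNAs, and 36.2% and 32.7% with Khsrp siRNA, and it was 45.2%, 42.9% and 45.4% in siNT. The double knockdown libraries were the lowest of the 11 in both measures. Median intron retention was 2.44% and 1.9% with both siRNAs, and 2.71% and 2.45% with Khsrp siRNA, within the range of the other libraries (2.11% to 2.95%) but for the lowest value.

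**Figure D1:**
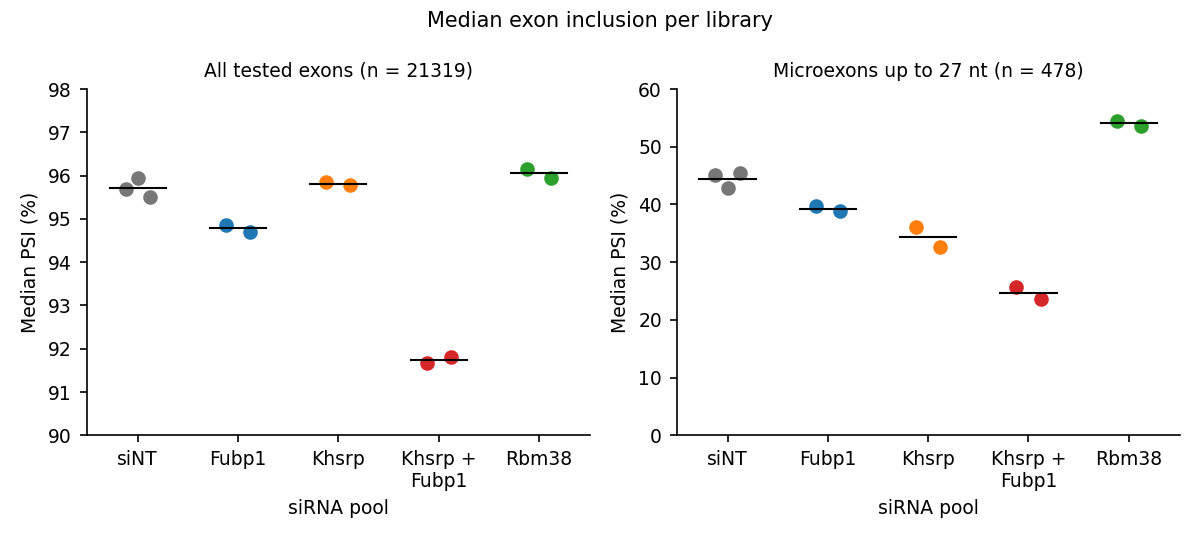
Median PSI in percent (y axis) of all tested exons (left) and of microexons (right) in each library, by siRNA pool (x axis). Points are libraries and lines the mean of a group. The left axis starts at 90%. Both double knockdown libraries lie below the other 9, at 91.7% and 91.8% for all exons.

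The skipping reached exons that were almost always included. Of 13586 exons at 90% or more in the Khsrp knockdown, 1498 (11%) fell, and 111 of them were below 50% in the double knockdown. Lower exons went from a median of 96.4% to 70.7%, and their medians were 97.1% in siNT and 92.1% with Fubp1 siRNA alone. Higher exons were little included to begin with, and went from a median of 18.6% to 47.6%. An exon near 100% can only fall. Among the 2274 exons at 20% to 80% in the Khsrp knockdown, 316 fell and 195 rose, so that 61.8% of these calls were lower.

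**Figure D2:**
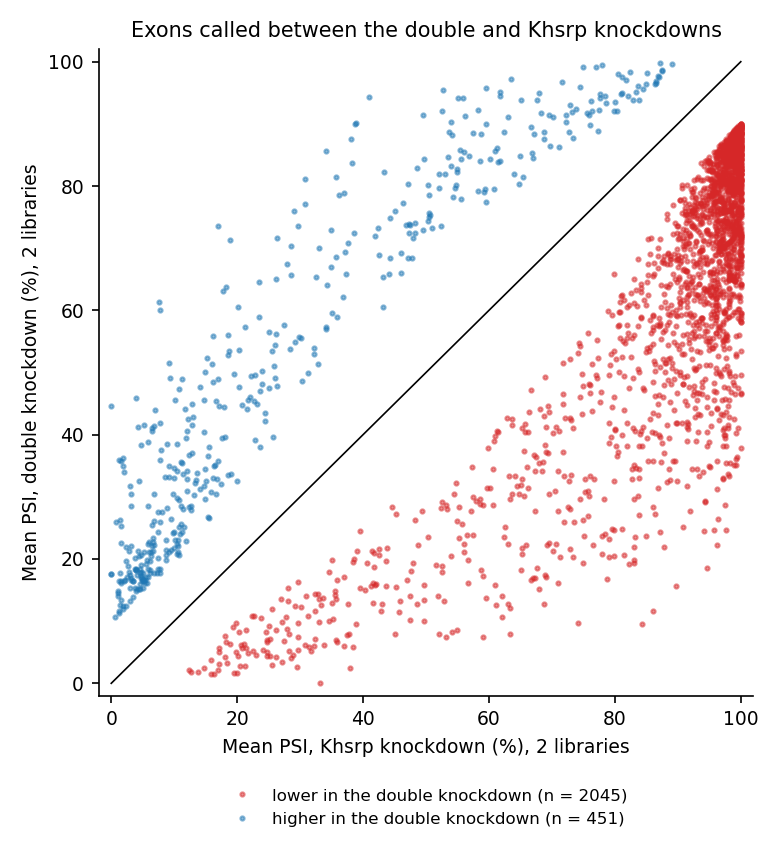
Mean PSI of each called exon in the Khsrp knockdown (x axis, percent) against the double knockdown (y axis, percent), 2 libraries each. Red points are the 2045 lower exons, blue points the 451 higher ones, and the line marks equal PSI. Most red points start above 90%.

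Sequences of 5 exons that fell are shown to make visible how large a piece of coding sequence is skipped. Each line gives 15 bases of the exon before, the skipped exon in capitals, and 15 bases of the exon after, 5′ to 3′, as in the GENCODE vM21 transcripts, with coordinates in GRCm38.
Rasa1 (chr13:85246591-85246643, minus strand): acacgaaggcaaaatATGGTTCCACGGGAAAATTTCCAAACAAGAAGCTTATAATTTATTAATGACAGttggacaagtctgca
Btaf1 (chr19:36951034-36951177, plus strand): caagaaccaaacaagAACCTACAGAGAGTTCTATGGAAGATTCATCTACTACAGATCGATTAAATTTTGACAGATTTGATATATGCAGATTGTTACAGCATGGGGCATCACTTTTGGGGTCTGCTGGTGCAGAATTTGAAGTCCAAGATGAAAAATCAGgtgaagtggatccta
Med6 (chr12:81579570-81579685, minus strand): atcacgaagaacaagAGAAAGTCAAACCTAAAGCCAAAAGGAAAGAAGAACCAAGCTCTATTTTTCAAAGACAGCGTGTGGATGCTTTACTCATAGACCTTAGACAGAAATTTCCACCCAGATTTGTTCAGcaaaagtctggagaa
Ppp3cb (chr14:20503247-20503276, minus strand): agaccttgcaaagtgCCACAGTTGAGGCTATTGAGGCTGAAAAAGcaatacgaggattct
Ptbp2 (chr3:119724612-119724645, minus strand): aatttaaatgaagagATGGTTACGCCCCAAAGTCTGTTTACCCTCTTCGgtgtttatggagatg

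The lengths differ in what skipping does to the reading frame. The exons of Btaf1 (144 nt, exon 4 of 38) and Ppp3cb (30 nt, exon 13 of 14) are multiples of 3, whereas those of Rasa1 (53 nt, exon 7 of 25), Med6 (116 nt, exon 6 of 8) and Ptbp2 (34 nt, exon 10 of 14) are not.

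Rasa1, a GTPase-activating protein of Ras, had the largest fall among the cassette exons named. Its 53-nt exon was at 98.5% and 90.7% in the Khsrp libraries and at 15.3% and 21.6% in the double knockdown, a change of -6.30 ± 0.72 (SE) in log2 odds (limma adjusted p = 2.37e-05). No library of the other 4 groups was under 90%, as Fubp1 siRNA alone gave 95.9% and 91.1%. In Btaf1, an ATPase that removes the TATA-binding protein from DNA, the exon was at 96.4% and 95.2% with Khsrp siRNA and at 23.1% and 26.0% in the double knockdown (limma adjusted p = 2.49e-06). Med6, a Mediator subunit, fell from 97.3% and 97.7% to 26.8% and 30.7% (limma adjusted p = 9.01e-07). The 30-nt exon of Ppp3cb, a catalytic subunit of calcineurin, fell from 90.5% and 91.1% to 27.3% and 23.2% at the same adjusted p. In every one of these 4 exons the groups were far apart compared with the spread within them.

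Exons of Exoc5, Sec31a, Hectd2 and Nf1 were also among those that fell by over 60 points. Exoc5, an exocyst subunit, had a 195-nt exon at 97.6% and 95% with Khsrp siRNA and at 14.4% and 30.01% with both (limma adjusted p = 1.24e-05). Sec31a, a subunit of the COPII coat, had a 78-nt exon at 87.1% and 88.6%, and at 23.4% and 20.3% in the double knockdown (limma adjusted p = 9.01e-07). Hectd2, a HECT-type ubiquitin ligase, fell from 90.7% and 88.8% to 17.2% and 13.9% (limma adjusted p = 1.62e-05). The 135-nt exon of Nf1, the Ras regulator neurofibromin, was at 100.0% and 92.9% and then at 32.2% and 20.6% (limma adjusted p = 0.00163). At least 32 reads stood behind each of the Nf1 values in these 4 libraries, and at least 35 behind those of Hectd2, so the sizes of these falls are less exact than those of Med6 (at least 469 reads). Adding a term for the library-number sets ended the Nf1 call (limma adjusted p = 0.138, against at most 0.0399 when any 1 library was left out).

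**Figure D3:**
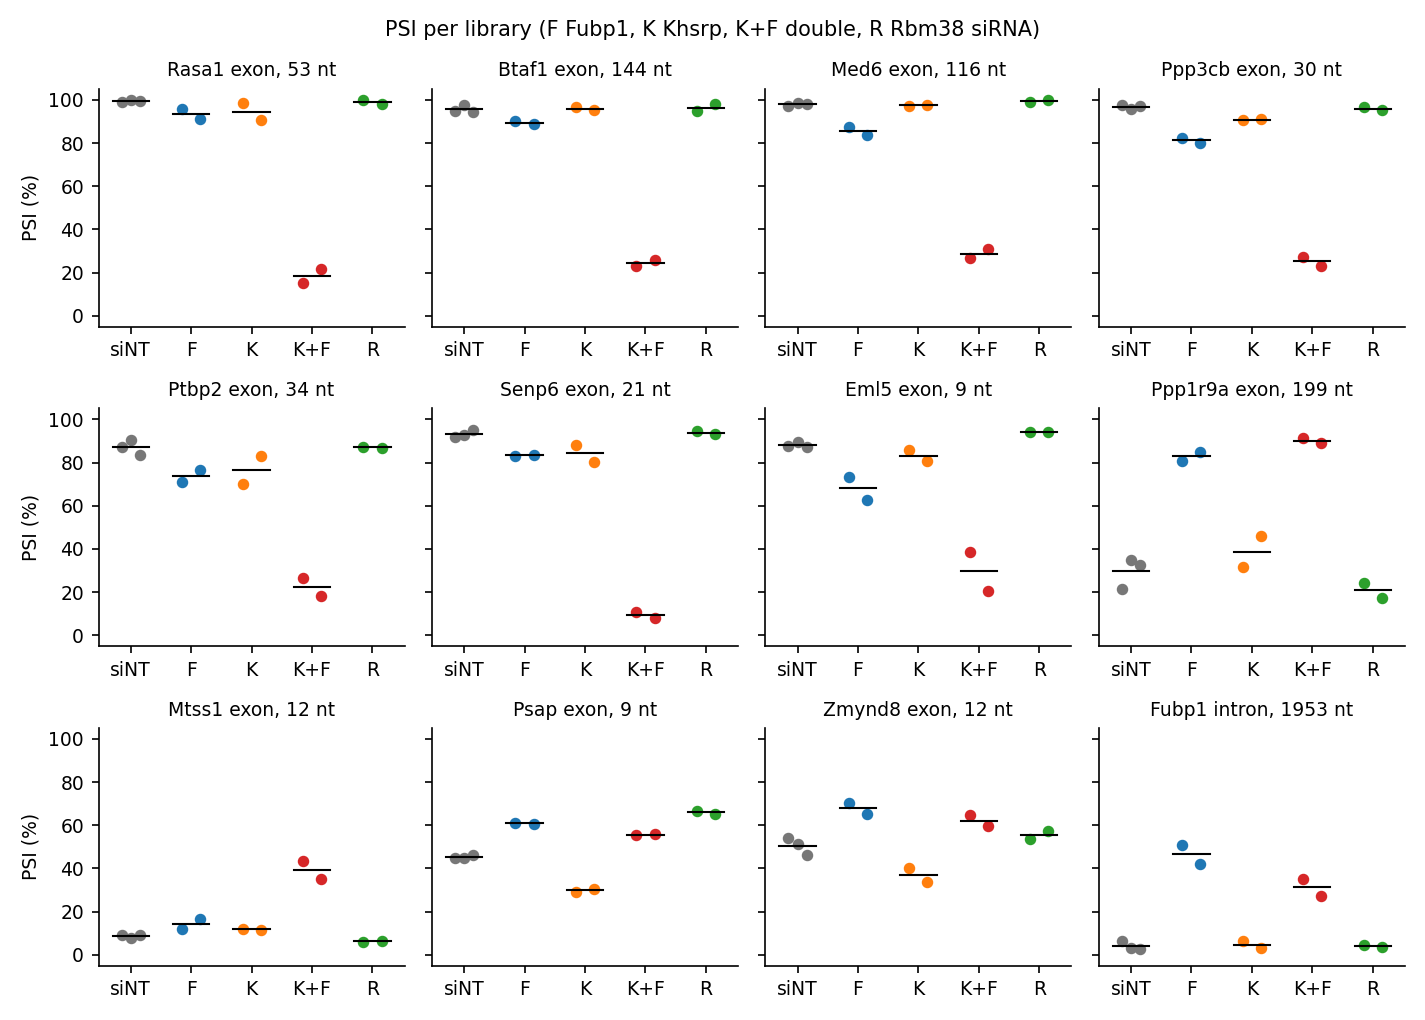
PSI in percent (y axis) of 11 exons and 1 retained intron in every library, by siRNA pool (x axis; F, Fubp1; K, Khsrp; K+F, both; R, Rbm38). Points are libraries and lines group means. In the first 7 panels both double knockdown libraries lie below all others, and the Fubp1 intron is high only where Fubp1 siRNA was used.

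Microexons moved in both directions, but downward calls outnumbered upward ones. The 66 lower microexons lay in 62 genes, 58 of them had a length that is a multiple of 3, and their median went from 71.1% with Khsrp siRNA to 31.4% with both. The sequences of 5 microexons show how few bases are affected, with capitals, flanks and source as above. The first 2 fell and the other 3 rose.
Senp6 (chr9:80098886-80098906, plus strand): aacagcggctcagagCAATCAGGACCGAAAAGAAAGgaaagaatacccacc
Eml5 (chr12:98819861-98819869, minus strand): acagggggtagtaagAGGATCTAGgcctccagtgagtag
Mtss1 (chr15:58964497-58964508, minus strand): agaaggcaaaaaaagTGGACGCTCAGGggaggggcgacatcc
Psap (chr10:60297537-60297545, plus strand): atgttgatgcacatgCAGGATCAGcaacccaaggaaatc
Zmynd8 (chr2:165852868-165852879, minus strand): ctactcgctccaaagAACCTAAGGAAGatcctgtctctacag

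Senp6, a protease that removes SUMO chains, had a 21-nt microexon at 88.2% and 80.3% in the Khsrp libraries and at 10.8% and 8.14% in the double knockdown (limma adjusted p = 9.01e-07). The other groups lay between 83.0% and 94.8%, so both double knockdown libraries stood apart from the 9 others. The 6-nt microexon of Hook3, an adaptor of the dynein motor, fell from 73.7% and 74.7% to 12.3% and 7.22% (limma adjusted p = 2.49e-06). A 12-nt microexon of Acap2, a GTPase-activating protein for Arf6, fell from 97.7% and 96.7% to 35.2% and 30.9% (limma adjusted p = 9.01e-07). The 9-nt microexon of Eml5, a microtubule-associated protein, fell from 85.6% and 80.5% to 38.6% and 20.8% (limma adjusted p = 2.58e-04). The Eml5 libraries of the double knockdown differed from each other by more than those of the other 3 genes, and still did not overlap with the Khsrp libraries.

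Among the 11 microexons that rose, that of Mtss1, a protein linking actin and membranes, went from 12.2% and 11.5% to 43.7% and 35.3% (limma adjusted p = 4.19e-04). Psap encodes prosaposin, the precursor of lysosomal saposins. Its 9-nt microexon stood at 29.2% and 30.7% with Khsrp siRNA and at 55.5% and 55.9% with both (limma adjusted p = 0.00111), with at least 4163 reads in each of these libraries. In siNT it was at 44.9%, 44.9% and 46.4%, so the 2 Khsrp libraries lay below the controls and the double knockdown above them. The 12-nt microexon of Zmynd8, a reader of histone marks, showed the same order, at 40.0% and 33.6% against 64.5% and 59.7% (limma adjusted p = 0.00663) and 46.2% to 53.9% in siNT. Its call was lost without double knockdown replicate A (limma adjusted p = 0.0855) and without Khsrp replicate B, where p was 0.0793. A 5-nt microexon of Eef1b2, a translation elongation factor subunit, was at 0% in both Khsrp libraries and at 49.3% and 40.0% in the double knockdown. It was also at 53% in siNT replicate C and at 0% in the other 6 libraries, and its call was lost in 3 of the fits that left out 1 library, with adjusted p of up to 0.259 in limma.

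Cassette exons that rose included that of Ppp1r9a (199 nt), which encodes the neuronal actin-binding protein neurabin. It was at 31.5% and 46.1% in the Khsrp libraries and at 91.6% and 88.8% in the double knockdown (limma adjusted p = 1.06e-04). Fubp1 siRNA alone had it at 80.8% and 85.0%, close to the double knockdown. Ggcx, the carboxylase that uses vitamin K, had a 250-nt exon at 19.2% and 18.3%, and at 73.0% and 69.6% with both (limma adjusted p = 2.36e-04). A 222-nt exon of Ccdc136 went from 36.2% and 25.5% to 80.7% and 81.5% (limma adjusted p = 1.94e-04). The 86-nt exon of Atg4a, a protease of autophagy, went from 7.27% and 8.33% to 60% in both libraries (limma adjusted p = 2.82e-04), with as few as 12 reads. The 53-nt exon of Ercc4, a DNA repair nuclease subunit, rose furthest by PSI among the cassette exons named. It went from 15.2% and 0% to 80.0% and 42.9% with as few as 20 reads, and the call (limma adjusted p = 0.027) was lost without Khsrp replicate A, without Khsrp replicate B and without double knockdown replicate A, with adjusted p of up to 0.292. The exons of AI480526, Sspo and Tmem144 also rose by 49.5 to 53.3 points on as few as 10 to 17 reads, and each of these calls was lost in at least 2 of the fits that left out 1 library.

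Retained introns changed in smaller numbers. The 128 introns that rose had a median length of 2717.5 nt and went from a median retention of 5.3% to 24.7%. The 185 that fell had a median of 435 nt and went from 29.8% to 9.8%, and introns not called had a median of 897 nt. A 1647-nt intron of Vps13a, a lipid transfer protein, rose from 6.9% and 11.6% to 62.8% and 84.0% (limma adjusted p = 6.23e-05). In Dennd5b, which encodes an activator of Rab proteins, a 2735-nt intron rose from 4.2% and 2.73% to 54.0% and 61.5% (limma adjusted p = 1.68e-05). A 4703-nt intron of Cnot4, a ubiquitin ligase of the CCR4-NOT complex, rose from 5.56% and 4.62% to 70.0% and 56.2% (limma adjusted p = 7.02e-04). Clcn2, a chloride channel, had a 210-nt intron that fell from 68.4% and 55.9% to 20.8% and 12% (limma adjusted p = 0.00349). Retention of a 10510-nt intron of Zwint, a kinetochore protein, fell from 49.6% and 68.1% to 18.8% and 8.79% (limma adjusted p = 0.00168), and Fubp1 siRNA alone had it at 53.3% and 28.4%.

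Alternative splice sites moved less often, but some moved far. A 3′ splice site of Gdi2, which recycles Rab proteins, was used in 7.14% and 9.67% of transcripts with Khsrp siRNA and in 78.1% and 76.2% with both (limma adjusted p = 9.01e-07). Fubp1 siRNA alone gave 31.4% and 32.5%. The 3′ site of Pdlim5, a scaffold of the actin cytoskeleton, fell from 78.4% and 81.3% to 35.9% and 40.3% (limma adjusted p = 6.12e-05). A 5′ splice site of Cenpk, a kinetochore protein, rose from 10.1% and 11.8% to 54.4% and 55.8% (limma adjusted p = 1.65e-05). The 5′ site of Taf9, a TFIID subunit, rose from 4.65% and 0% to 61.5% and 61.9% (limma adjusted p = 6.33e-04) on as few as 21 reads, and this call was lost without Khsrp replicate A (limma adjusted p = 0.0721). In each of these 4 sites the libraries of the groups were well apart.

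Many genes held more than 1 lower exon. The 2040 lower exons with distinct coordinates lay in 1061 genes, of which 464 had at least 2, 231 at least 3 and 69 at least 5. Neighbouring exons that are skipped together can share the same skipping reads, so exons of 1 gene are not independent. Vps13a had 14 lower exons of 18 tested, with mean PSI between 94.3% and 100.0% in the Khsrp knockdown and between 29.1% and 89.5% in the double knockdown. In Alg6, a glucosyltransferase of N-glycan synthesis, all 11 tested exons fell, from a median of 78.3% to 32.9%. Senp6 had 9 of 10 lower (median 90.3% to 52.1%), and the mitotic kinase Ttk 9 of 13 (96.0% to 64.3%). Pcm1, which builds centriolar satellites, had 7 of 11 (95% to 43.1%), Exoc5 7 of 9 (96.3% to 75.3%) and Zmym4 8 of 13 (98.1% to 70.7%).

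Genes of RNA processing were among the hosts. Of 158 tested exons in 54 of the listed regulators of alternative splicing, 14 fell (8.9%, against 9.59% of all exons) and 10 rose (6.33%, against 2.12%). Of the 10 rises 4 were called in every fit that left out 1 library, and without double knockdown replicate A 6 of them remained called, with those of Msi1, Srsf4, Tia1 and Tra2a lost. Of the 14 falls 11 were called in every such fit. Ptbp2, the neuronal relative of the polypyrimidine tract binding protein, had 6 of the 14. Its 34-nt exon, shown above, was at 70.1% and 83.1% in the Khsrp libraries and at 26.5% and 18.2% in the double knockdown (limma adjusted p = 7.19e-05), against 83.3% to 90.5% in siNT. Its 173-nt exon fell from 96.4% and 98.6% to 46.6% and 45.0%, and its 144-nt exon from 97.7% and 97.8% to 50.7% and 59.9%. A further Ptbp2 exon of 196 nt went from 100.0% in both libraries to 88.1% and 76.0%, a call that was lost without Khsrp replicate A or B (limma adjusted p of up to 0.164). A 54-nt exon of Rbm25, a spliceosome-associated protein, fell from 90.2% and 87.6% to 49.8% and 46.6% (limma adjusted p = 1.12e-05). Hnrnpr fell from 42.3% and 41.7% to 15.8% and 16.3% in a 169-nt exon (limma adjusted p = 1.47e-04). A 73-nt exon of Hnrnpa2b1 rose from 36.1% and 38.1% to 68.2% and 70.6% (limma adjusted p = 6.43e-04). The 75-nt exon of Qk, which encodes the RNA-binding protein quaking, fell from 98.8% and 99.6% to 72.2% and 76.2% (limma adjusted p = 3.00e-04), and this call ended with a term for the library-number sets (limma adjusted p = 0.132, against at most 0.0196 with any 1 library left out).

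Of 41 tested exons in genes that recognise the 3′ splice site and branch point, 1 fell (2.4%, against 9.59% of all exons). Another 1 rose (2.44%, against 2.12% of all exons). The lower one was a 273-nt exon of Sf3b1, a U2 snRNP subunit, at 99.8% and 99.2% in the Khsrp libraries and at 86.8% and 84.2% in the double knockdown (limma adjusted p = 4.33e-05). The higher one, a 198-nt exon of Prpf40b, an early spliceosome factor, went from 6.51% and 5.43% to 15.9% and 26.5% (limma adjusted p = 0.0473), and its call was lost in 8 of the 11 fits that left out 1 library (adjusted p of up to 0.259).

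Genes of G2 and mitosis had 25 of 103 tested exons lower (24.3%, against 9.59% of all exons) and 2 higher (1.94%, against 2.12%). Called exons lay in 10 of 36 host genes, against 1399 of 7015 over all genes. Ttk held 9 of the 25 falls and Kif18a, a kinesin of chromosome alignment, 5, and exons of 1 gene are not independent. In Kif18a a 177-nt exon was at 98.8% and 97.8% in the Khsrp libraries and at 36.3% and 34.6% in the double knockdown, and a 198-nt exon went from 100.0% and 99% to 44.9% and 37.1%. Smc4, a condensin subunit, had a 192-nt exon that fell from 96.8% and 98.1% to 54.0% and 65.3%. The 24-nt microexon of Ckap5, a microtubule polymerase, fell from 37.6% and 32.7% to 11.6% and 9.16%, and the 12-nt microexon of the centromere protein Incenp from 37.7% and 37.5% to 11.4% and 14.2%. The 2 higher exons were a 137-nt exon of the centromeric histone gene Cenpa (55.8% and 52.8% to 77.7% and 78.7%) and a 312-nt exon of the kinesin gene Kif23 (35.1% and 33.1% to 62.5% and 52.2%). Of the 25 falls 17 were called in every fit that left out 1 library, and the Kif23 rise (limma adjusted p = 0.0272) was lost without Khsrp replicate A or B or double knockdown replicate A, with adjusted p of up to 0.267. Among S phase and DNA replication genes, 8 of 64 exons fell (12.5%), 6 of them in the polymerase subunit gene Pola1, where mean PSI in the double knockdown was between 58.8% and 72.9%. Without Khsrp replicate A, or without double knockdown replicate A, 5 of these 8 falls remained called, and those of 2 Pola1 exons and of Pole2, another polymerase subunit gene, were lost. The exons of Kif18a, Smc4, Ckap5 and Incenp described here had limma adjusted p of at most 3.62e-04. They were chosen for description after their values were seen.

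Lower exons were flanked by longer introns than other exons. The median intron upstream was 3643 nt for lower exons, 1453 nt for higher exons and 2143 nt for exons not called, and downstream it was 3334, 1832 and 2143 nt. When exons were divided into 10 bins of about equal size by the length of the upstream intron, 1.46% of those with the shortest introns (up to 228 nt) fell, and 14.4% in bin 8 (5074 to 8451 nt). In the bin with the longest introns 10.5% fell. Higher exons ran the other way, from 3.34% in the bin with the shortest introns to 1.23% in that with the longest. Downstream introns gave 2.45% in the first bin and 14.3% in bin 8. When only exons at 90% or more with at least 100 reads were counted, the shares were 1.7% in bin 1 and 16.4% in bin 8 for upstream introns. Exon length itself differed little, with medians of 114, 98 and 111 nt for lower, higher and uncalled exons. Events share genes and introns, and these shares are a description with no test.

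**Figure D4:**
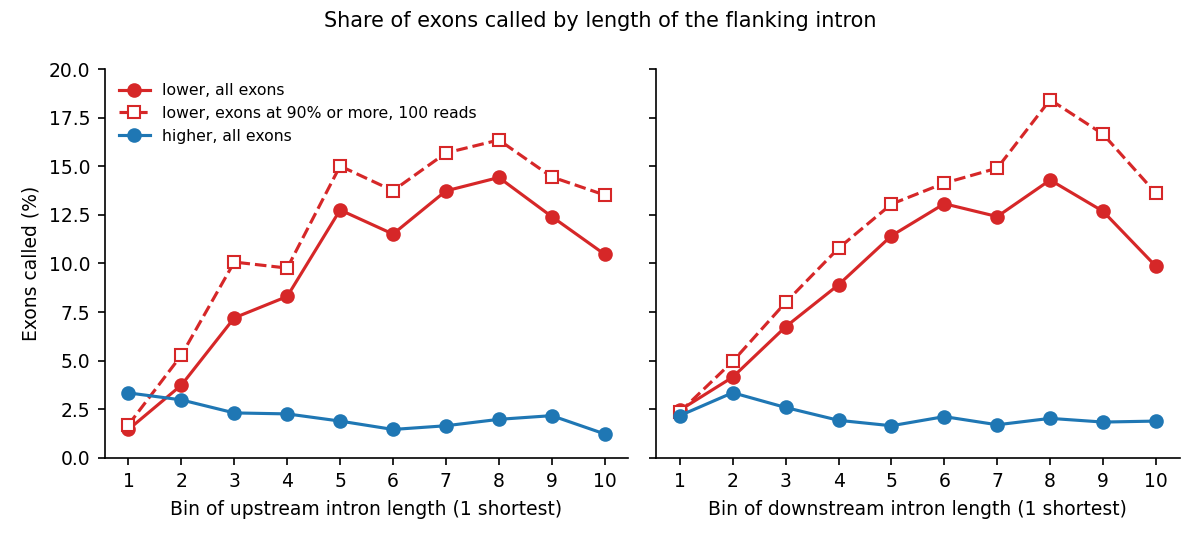
Percent of exons called (y axis) in 10 bins of the length of the upstream (left) and downstream (right) intron (x axis, 1 is shortest). Red circles are lower exons, open squares lower exons among those at 90% or more with at least 100 reads, and blue circles higher exons. The red share goes from 1.46% in upstream bin 1 to 14.4% in bin 8.

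Skipping of exons whose length is no multiple of 3 shifts the reading frame, so the authors' expression values of the host genes were set beside exon length. Host genes with a lower coding exon of such a length had a median log2 ratio of RPKM (double over Khsrp knockdown, 1 added to each value) of -0.35 over 442 genes, and 9.5% of them were at least 2-fold lower. Where all lower coding exons were multiples of 3, the median was -0.07 over 313 genes, and 2.6% were at least 2-fold lower. For 3579 genes with tested coding exons and no call, the median was 0.01 and 1.5% were at least 2-fold lower. Within the lower exons 41.5% had a length that is a multiple of 3, against 48.6% of the higher and 40.0% of the uncalled ones. These are counts over genes of 1 pair of group values and carry no test.

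Fubp1 siRNA alone, compared with siNT, shares no library with this comparison, and its differences had mostly the same sign. Of the 2045 exons that fell when Fubp1 siRNA was added to Khsrp siRNA, 93.2% had a mean PSI below siNT with Fubp1 siRNA alone, with a median difference of -4.2 points against -22.2 points. Of the 451 that rose, 84.7% lay above siNT, by a median of 5.1 against 21.1 points. Among exons not called, 53.2% lay below siNT. In that comparison 341 events fell (0.567% of those tested) and 104 rose (0.173%), and they included 238 of the lower exons and 34 of the higher ones. The difference between both effects of Fubp1 siRNA was tested itself in log2 odds, as the change with Khsrp siRNA minus the change without it. In this test 49 events (0.0815%) were called. An unadjusted p under 0.05 in this test was found for 6257 events. Among the called ones, 42 had a more negative change with Khsrp siRNA than without it. This is not always a larger fall, as some of them rose with Fubp1 siRNA alone. The 18-nt microexon of Abi2 went from a mean of 17.3% in siNT to 44.6% with Fubp1 siRNA. On Khsrp siRNA it went from 13.2% to 4.0%. Exons were 47 of the 49 events called. This count fell to 0 without any 1 of the Fubp1, Khsrp or double knockdown libraries, and to 17, 27 and 32 without siNT replicate A, B and C, so it rests on every library of these groups.

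Expression could be described from 1 value per group, without replicate check or test. A mean of at least 1 RPKM over all groups of the series was required, which 12670 genes had. Of these, 309 (2.44%) were at least 2-fold higher in the double than in the Khsrp knockdown. Another 376 (2.97%) were at least 2-fold lower, as ratios of RPKM + 1. The median log2 ratio was -0.01. Since RNA was taken from whole cultures, fewer cells of one state and less RNA per cell cannot be told apart. After Fubp1 itself and a microRNA gene, Mir344b, whose level in such libraries is uncertain, Dbh was lowest. It encodes dopamine beta-hydroxylase, which makes noradrenaline, and stood at 27.4 RPKM with Khsrp siRNA and 2.75 RPKM with both in the authors' table. Against siNT, the authors' deposited table gives Dbh a log2 fold change of -2.95 (FDR 8.11e-41) in the double knockdown, -1.53 (FDR 3.86e-13) with Fubp1 siRNA and 0.44 (FDR 0.125) with Khsrp siRNA. Dzip3, a ubiquitin ligase, stood at 33.9 and 3.75 RPKM, and C1galt1, an O-glycan galactosyltransferase, at 23 and 4.08 RPKM, both by the authors' values. Efcab7, Slc9b2, Bdh2 and Nudcd1 followed, with log2 ratios between -2.19 and -1.91. The pseudogene Pgam1-ps2, also among the 10 lowest, can share reads with its parent gene and is uncertain.

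The highest ratio among named protein-coding genes was that of Ifitm3. Ifitm3, an interferon-induced membrane protein that blocks virus entry, stood at 10.6 RPKM with Khsrp siRNA and 96.7 RPKM with both in the authors' table. Acta2, smooth muscle actin, was at 9.01 and 60.9 RPKM, and Timp3, an inhibitor of metalloproteinases, at 3.41 and 21.2 RPKM. Rec8, a meiotic cohesin subunit, was at 4.52 and 29.2 RPKM, and Rras, a Ras relative, at 6.09 and 29.0 RPKM by the authors' values. For Ifitm3, Acta2, Timp3, Rec8 and Rras the authors' deposited table gives log2 fold changes of 4.47, 4.01, 4.16, 2.12 and 2.75 in the double knockdown against siNT, each with an FDR of at most 8.61e-19. Tsga10, Wbscr27 and Apol10b completed the named genes, with log2 ratios from 1.95 to 2.12. Apol10b was higher with Fubp1 siRNA alone (66 RPKM) than in the double knockdown (44.4 RPKM). The pseudogene Rpl30-ps9 and the small nucleolar RNA Snord55 had ratios in the top 10 as well, but their counting is uncertain.

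Listed pathways were compared by their counts and medians. All 52 S phase and DNA replication genes had a ratio below 0, with a median of -0.40 and 4 at least 2-fold lower, among them Hells, a chromatin remodeler, at 73.0 and 22.4 RPKM, and Tyms, which makes thymidylate, at 107.3 and 33.8 RPKM in the authors' table. Among G2 and mitosis genes 41 of 50 were below 0 (median -0.22), and 3 were at least 2-fold lower: Ttk (29.4 and 9.92 RPKM), Bub1 (59.2 and 26.1 RPKM) and Kif18a (23.9 and 10.7 RPKM), of which all 3 also had lower exons. The 42 MYC family and target genes past the filter had a median of -0.28, with 1 gene past 2-fold in each direction. Regulators of alternative splicing had a median of -0.25 over 76 genes. The 30 factors of 3′ splice site and branch point recognition past the filter had a median of -0.14 and no gene past 2-fold. For comparison, 6409 of all 12670 genes had a ratio below 0.

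Neuronal and sympathoadrenal genes were mostly lower. Of 47 synaptic vesicle, granule and neurite genes, 34 were below 0 (median -0.34) and 6 at least 2-fold lower, such as Cplx2, a regulator of vesicle fusion (17.6 and 4.99 RPKM), and Chgb, a granule protein (215.8 and 92.8 RPKM), by the authors' values. Stmn4, a stathmin of neurites, was the 1 gene at least 2-fold higher, at 28.9 and 104.1 RPKM. Of 18 sympathoadrenal and neuroendocrine transcription factors past the filter, 13 were below 0 (median -0.48), with Insm1 at 22.0 and 9.12 RPKM and Isl1 at 18.1 and 8.11 RPKM in the authors' table. Markers of the labelled line moved with them, as 12 of 14 were below 0 with a median of -0.59. Axon guidance genes were split evenly, 14 above and 14 below 0.

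Smooth muscle type actomyosin genes had the highest median, 0.61, with 22 of 24 above 0 and 4 at least 2-fold higher. Beside Acta2 these were Myl9, a myosin light chain (54.9 and 139.1 RPKM), Cnn2, a calponin (94.6 and 206.8 RPKM), and Flnc, a filamin (3.97 and 11.5 RPKM), by the authors' values. Of 29 interferon-stimulated and antigen presentation genes past the filter, 25 were above 0 (median 0.48) and 5 at least 2-fold higher, including the immunoproteasome subunits Psmb8 (8.45 and 19.7 RPKM) and Psmb9 (1.74 and 5.00 RPKM) and the ubiquitin-like Isg15 (2.69 and 7.97 RPKM). Immediate early genes and genes with AU-rich elements had a median of 0.33, with Atf3 (5.12 and 15 RPKM) and Fosl2 (7.09 and 19.4 RPKM) past 2-fold. Targets of p53 had a median of 0.25 and 3 genes at least 2-fold higher, such as Trp53inp1 (0.30 and 3.16 RPKM) and Bbc3 (3.62 and 10.3 RPKM). Marker lists of fibroblasts, glia, macrophages and epithelium or endothelium stayed at or under 7.0 RPKM summed in both groups, with 20 of their 32 genes under 0.1 RPKM in both. Of 41 genes of amino acid supply and the integrated stress response (median 0.09), 2 were at least 2-fold higher and 1 lower, and of 28 genes of sterol synthesis (median -0.20) 0 passed 2-fold.

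**Figure D5:**
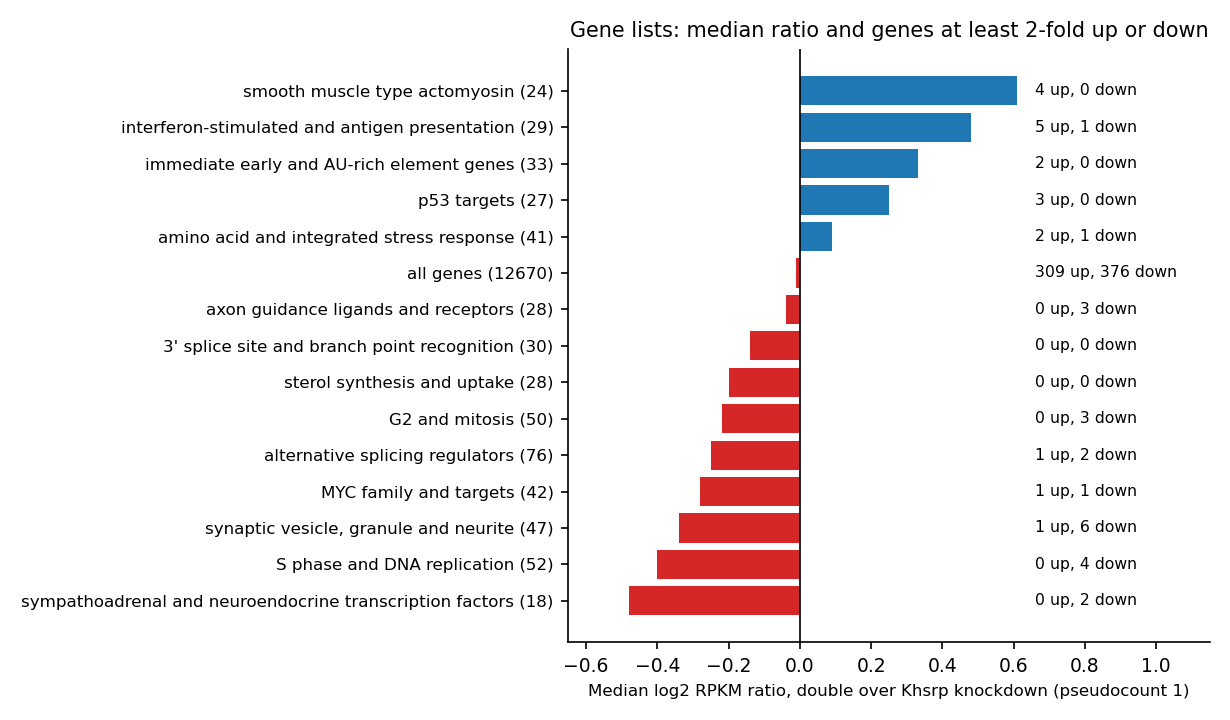
Median log2 ratio of RPKM + 1, double over Khsrp knockdown (x axis), for each gene list and for all genes (y axis; genes past the filter in parentheses), from 1 deposited value per group. Numbers at the right give the genes at least 2-fold up or down. Among the lists plotted, which leave out the cell type markers and the FUBP family, actomyosin genes have the highest median (0.61) and sympathoadrenal transcription factors the lowest (-0.48).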

How the data were processed

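Polyadenylated RNA was sequenced from 11 N2A libraries, prepared with a stranded protocol changed to give longer inserts, per the labels' protocols. Members and gene lists were chosen with earlier results of these data known. Per library, the authors deposited PSI in percent together with a text field from which corrected reads for inclusion and for exclusion were taken. The table has the vast-tools layout, and no version is stated. A second deposited table gives a PSI score per group and the authors' True or False calls, whose rule is not stated. The deposited expression table holds 1 RPKM value per group, and the authors' log2 fold changes, p-values and adjusted p-values (FDR) against siNT. The submitters' processing notes name Salmon 0.14.1, edgeR and mm10. How replicates were combined is not stated, and the depth behind RPKM is unknown.

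Of 401633 entries for 358106 events, 37194 were left out, each the reference site of its group of alternative sites. PSI computed from reads lay within 0.05 points of the deposited percent. Events with at least 10 reads in every library and a mean PSI from 1 to 99 were tested. Inclusion over exclusion reads, as log2 odds with 0.5 added to each, were fitted in limma 3.58.1 (R 4.3.3) with 1 mean per group over all 11 libraries (6 residual degrees of freedom). Weights were the inverse of counting variance plus a between-library variance of 0.131, set so that scaled differences between replicates with at least 100 reads had the median of a chi-square variable. Moderation used a trend, and p-values were adjusted over all 60139 events. SE is that of the log2 odds. Without molecular identifiers, copies of 1 molecule are counted as separate reads, so the counting variance taken from reads may be too low.

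The fit was tested on simulated reads for the double against Khsrp knockdown (60139 events). With 2000 changed events it called 505 of 1000 changes of 30 points and 52 of 1000 of 15 points, and 0.54% of its calls were false. With 200 changed it called 17 of 100 and 0 of 100. Many changes of this size are therefore missed.

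RPKM values were compared as log2((double + 1)/(Khsrp + 1)) for genes with a mean of at least 1. Named events were, per direction, those with the largest change among non-overlapping calls, 1 per gene: 8 cassette exons, 4 microexons, 4 introns, and 3 alternative sites of each kind, and 8 more in hosts of the RNA processing lists. Named genes were the 10 highest and 10 lowest ratios at a mean of at least 5 RPKM, the FUBP genes and up to 4 members past 2-fold per list. Genes without a proper name were passed over. Events described beyond this rule, in genes with several lower exons and in hosts of listed genes, were chosen after their values were seen. Event coordinates did not follow GRCm38, and no source used here states their build. Exons and introns were therefore matched to GENCODE vM21 by chromosome and by the lengths of the exon and its flanking introns, and unmatched ones carry no position. The library numbers in the labels (1 to 4, and 8 to 27, which holds both groups compared) are not explained there. No 2 libraries were duplicates. Replicate letters were taken from the descriptions, and the reported fit did not pair samples by them. The A libraries of the 2 groups compared carry the numbers 8 and 9, and the B libraries 20 and 21.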

Additional observations from a re-analysis of the deposited data

Results flagged for a closer look

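The effect of Fubp1 siRNA differed with and without Khsrp siRNA in 49 events, by a test of the difference itself in limma. Among the events described above it differed in 6. Values are the change with Khsrp siRNA minus the change without it, in PSI points. The adjusted p belong to the same difference in log2 odds, so they need not follow the size in points. The Rasa1 exon gave -70.1 points and was not called (limma adjusted p = 0.361). The Senp6 microexon gave -65.0 points (limma adjusted p = 0.0199) and the Btaf1 exon -64.9 points (limma adjusted p = 0.024). The Med6 exon gave -56.4 points (limma adjusted p = 0.0406). The Hook3 microexon gave -54.1 points (limma adjusted p = 0.0199) and the Sec31a exon -42.6 points (limma adjusted p = 0.0388). The Dennd5b intron gave 45.8 points (limma adjusted p = 0.0418). Each of these was lost in every fit without 1 of the Fubp1, Khsrp or double knockdown libraries, where no event was called for this difference. The library numbers 1 to 4 hold both Fubp1 libraries and 2 of the siNT libraries, and with a term for that set 37 events were called.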

How the results depend on the processing

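Under the other fits and thresholds, between 74.3% and 82.4% of the calls were lower in the double knockdown, and 61.8% when only exons at 20% to 80% in the Khsrp knockdown were counted (a restriction added after seeing the data). Events higher in the double than in the Khsrp knockdown numbered 634 in the reported fit, 422 without weights and 195 under that restriction, and from 236 (without Khsrp replicate A) to 698 when 1 library was left out. Lower events numbered 2291, 316 under the restriction, and from 1103 to 2407 when 1 library was left out. The difference of the 2 Fubp1 siRNA effects, called in 49 events, gave 0 without weights, 284 with counting weights alone, 24 with a minimum of 1 read, 81 with a pseudocount of 1, 90 at a mean PSI of 5 to 95, 115 with robust moderation, and from 0 to 46 when 1 library was left out. A group left with 1 library was taken to vary like the others. The reported fit did not pair samples by replicate letter. A minus B differences correlated at 0.054 between the 2 groups, but counting noise lowers this value, so it cannot show that samples were unpaired. With a replicate block 734 events were higher and 2451 lower, and 0 differed in the Fubp1 siRNA effect. Of 52 called events that are named, 31 passed the threshold under all alternatives, 21 missed it under at least 1, and 0 reversed. Genes at least 2-fold higher numbered 309, 523 with a pseudocount of 0.1 and 148 at a mean of at least 5 RPKM, and lower ones 376, 632 and 230. Stricter minimums and omitted libraries leave fewer values, and counts fell under some of these settings and rose under others. The cause of these changes was not tested.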
